A study of Mus musculus with 4 samples.

Results

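The 10 genes described here are grouped as genes of the secondary (specific) granules of neutrophils, together with those of the paired calcium-binding proteins S100a8 and S100a9. They were chosen by symbol as Ltf, Camp, Ngp, Lcn2, Chil3, Cd177, Olfm4, Fcnb, S100a8 and S100a9, 10 of the 32285 genes counted, and each of the 10 had UMIs (unique molecular identifiers, that is counted transcript molecules) in each library. They were measured by droplet single-cell RNA-seq in the bone marrow of 5TMM mice, an immunocompetent myeloma model in which 5TGM1-luc myeloma cells are injected intravenously into C57BL/KawRij mice. The recipients are 6 weeks old at injection and are treated after 3 weeks. The vehicle group and the group given purinostat mesylate (PM), an inhibitor of class I and IIb histone deacetylases, at 10 mg/kg for 24 h held 2 mice each, with 1 library per mouse. All 4 mice carry the same tumour line, and red cells were lysed before capture. No mouse without tumour was part of the comparison.

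A neutrophil makes its granule proteins in waves while it matures in the marrow. The transcripts of the primary granules come in promyelocytes, those of the secondary granules in myelocytes and metamyelocytes, and both are switched off before the segmented cell leaves for the blood, while the stored proteins remain. C/EBP-epsilon is the transcription factor known to be required for the secondary wave. S100a8 and S100a9 form the cytosolic heterodimer calprotectin, and their transcripts are among the most abundant of the whole lineage.

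Of these genes, Ltf encodes lactoferrin, an iron-binding protein, and Camp encodes the cathelicidin antimicrobial peptide precursor. Ngp encodes a cystatin-like granule protein, Lcn2 the siderophore-binding lipocalin 2, and Chil3 the chitinase-like lectin Ym1. Cd177 is a surface glycoprotein that binds PECAM1, Olfm4 is the glycoprotein olfactomedin 4, and Fcnb is ficolin-B, a lectin that recognises microbial sugars. In the GRCm38 annotation, 3 of them lie on chromosome 9 (Camp at 109847379 to 109849617, Ngp at 110419747 to 110423012 and Ltf at 111019271 to 111042767). Fcnb (28076378 to 28084885) and Lcn2 (32384633 to 32388252) lie on chromosome 2. S100a8 (90668978 to 90670035, plus strand) and S100a9 (90692632 to 90695721, minus strand) stand 22596 bp apart on chromosome 3, which also holds Chil3 (106147554 to 106167564). Cd177 lies on chromosome 7 (24743983 to 24760311) and Olfm4 on chromosome 14 (79984081 to 80023139). Olfm4 overlaps the gene model Gm6999 on its own strand, so that reads of the pair may be split between them, and the other 9 overlap no other gene. Chil3 has a close paralog, Chil4, which took 0 and 0 UMIs in the neutrophils of the vehicle mice and 1 and 1 in those of the PM mice.

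The promoters of 5 genes are shown because the comparisons below turn on them: Fcnb, which fell in PM mice, Ngp and Ltf, which peaked in the same stage as Lcn2 and Cd177, and S100a8 and S100a9, whose ratio differed between the groups. Each runs 5′ to 3′ on the strand of the gene from 250 bases before its start to 50 bases after it (RefSeq, GRCm38.p6), and capitals mark matches to the C/EBP motif TTGCNNAA on either strand. The windows are chr2:28084829-28085128 (minus strand) for Fcnb, chr9:110419558-110419857 (plus) for Ngp, chr9:111019042-111019341 (plus) for Ltf, chr3:90668821-90669120 (plus) for S100a8 and chr3:90695672-90695971 (minus) for S100a9.
Fcnb: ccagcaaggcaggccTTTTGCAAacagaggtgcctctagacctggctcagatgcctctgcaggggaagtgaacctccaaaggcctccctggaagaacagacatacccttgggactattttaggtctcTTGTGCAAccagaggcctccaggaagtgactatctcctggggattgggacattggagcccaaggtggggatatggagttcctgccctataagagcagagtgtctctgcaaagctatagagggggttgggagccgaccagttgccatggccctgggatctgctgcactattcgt
Ngp: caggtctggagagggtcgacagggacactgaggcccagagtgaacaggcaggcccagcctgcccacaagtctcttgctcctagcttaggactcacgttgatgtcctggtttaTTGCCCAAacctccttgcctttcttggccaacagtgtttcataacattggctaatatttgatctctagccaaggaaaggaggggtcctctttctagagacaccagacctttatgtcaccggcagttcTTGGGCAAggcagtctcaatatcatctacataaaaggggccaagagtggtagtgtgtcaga
Ltf: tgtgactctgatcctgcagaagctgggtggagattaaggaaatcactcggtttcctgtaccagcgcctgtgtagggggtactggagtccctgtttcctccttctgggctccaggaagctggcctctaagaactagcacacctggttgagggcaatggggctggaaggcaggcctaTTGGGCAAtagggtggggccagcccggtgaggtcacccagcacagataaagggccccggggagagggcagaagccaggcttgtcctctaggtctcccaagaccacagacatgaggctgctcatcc
S100a8: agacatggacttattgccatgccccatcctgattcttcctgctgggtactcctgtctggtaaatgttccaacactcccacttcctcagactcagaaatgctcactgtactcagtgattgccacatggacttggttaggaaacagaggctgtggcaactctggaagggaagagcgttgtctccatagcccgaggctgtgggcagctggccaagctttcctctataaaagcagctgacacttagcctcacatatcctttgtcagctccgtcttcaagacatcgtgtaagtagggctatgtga
S100a9: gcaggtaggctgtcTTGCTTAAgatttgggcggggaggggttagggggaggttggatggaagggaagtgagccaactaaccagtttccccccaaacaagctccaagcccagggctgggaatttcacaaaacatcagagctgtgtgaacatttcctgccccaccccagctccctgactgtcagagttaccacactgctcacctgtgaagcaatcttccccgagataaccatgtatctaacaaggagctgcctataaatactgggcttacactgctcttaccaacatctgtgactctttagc

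The C/EBP letters stood in 5 of the 10 promoters, with the leftmost base of the match at −235 and −123 in Fcnb, −138 and −11 in Ngp, −75 in Ltf, −216 in Lcn2 and −236 in S100a9, against 10.8% of 32851 promoters of the same length. The ETS motif GGAAGTG, searched on both strands, stood in 4 of the 10 (Fcnb, Chil3, S100a8 and S100a9) and in 11% of all. TATAAAA on either strand stood in 3 of the 10 and in 5.48% of all. These are matches of letters in 300 bases and no measurement of binding.

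The files held 8242 to 13848 cell barcodes and 69828595 to 109447030 UMIs per mouse, and 7826 to 13387 cells per mouse passed the filters. Neutrophils numbered 6305 and 4233 cells in vehicle mice, against 7091 and 5442 in PM mice, 53.0% to 68.1% of the cells of a mouse, and each of 18 neutrophil markers that are not among the 10 genes was detected in them. The libraries shared 18 to 41 barcodes pairwise. In neutrophils the 10 genes together took 34.7% and 36.2% of all UMIs in vehicle mice, against 37.6% and 34.4% in PM mice. S100a8 and S100a9 made up most of it, 25.5% to 28.9%, and the other 8 genes held 8.74% to 9.04%. The groups overlapped in each of these sums. Fewer transcripts per cell and fewer cells making them cannot be told apart in such sums.

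Neutrophils were divided into stages by a clustering that used none of the 10 genes, and named from marker lists. The names mean proliferating-like, immature-like, mature-like, inflammatory-like and interferon-stimulated-like cells. Beside proliferating cells (Top2a, Ube2c, Mki67) there was a cluster that no list named (Orm1, Selenos, Hsp90b1), written here as unnamed early. The others were immature cells (Mmp8, Cd55, Nt5e), mature cells (Retnlg, Stfa2, Prok2), inflammatory cells (Il1b, Ptgs2) and interferon-stimulated cells (Ifit1, Rsad2, Isg15). No order of the clusters was computed, and this is only the order of listing. The names of the immature and mature clusters are the weaker ones, since their lists stood 0.427 to 0.707 standardized units above the mean of the clusters, against 2.17 for the proliferating list. The stages were not evenly filled. PM mouse 1 had 2.06% of its staged neutrophils in the mature cluster and 23.7% in the interferon-stimulated cluster, against 15.6% and 6.69% in PM mouse 2, 33.7% and 1.19% in vehicle mouse 1 and 21.7% and 2.14% in vehicle mouse 2. The proliferating, unnamed early and immature stages held 8.84% to 10.1%, 11.3% to 16.2% and 27.3% to 35.3% in the 4 mice.

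The secondary granule genes formed a steep series over these stages, and S100a8 and S100a9 a flat one. Levels are given as CPM (the gene's UMIs scaled to a common total of UMIs in the same cells and mouse) as a mean ± SD over the 4 mice, and with 3′ counting a level is compared within a gene, not between genes. Chil3 and Camp were highest in proliferating cells, at 11968 ± 1873 CPM and 42836 ± 4824 CPM (SD, n = 4 mice), and lowest in inflammatory cells, at 112 ± 44.9 CPM and 486 ± 163 CPM, at least 107-fold and 88.1-fold lower. Ltf and Ngp were highest in the unnamed early cluster, at 19241 ± 2184 CPM and 48576 ± 4849 CPM, and at least 62.6-fold and 49.9-fold lower in inflammatory cells. These folds are lower bounds, since the lowest levels are near those of free RNA, as given below. Fcnb was the most restricted of the 10. Its level was 707 ± 181 CPM in proliferating cells, 323 ± 62.0 CPM in the unnamed early cluster, 26.0 ± 11.5 CPM in immature cells and 4.22 ± 0.557 CPM in mature cells, a range of at least 168-fold, again bounded by free RNA at the low end. Interferon-stimulated cells had 231 CPM in vehicle mouse 1, which had 75 such cells, and 17.5 to 44.6 CPM in the other mice. For Ltf, Camp, Ngp, Lcn2, Chil3 and Cd177 the mean level of interferon-stimulated cells lay between those of immature and mature cells. For Ltf these were 17892, 7646 and 2237 CPM in immature, interferon-stimulated and mature cells.

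Lcn2, Cd177 and Olfm4 were the secondary granule genes that persisted. Lcn2 went from 14699 ± 1753 CPM in the unnamed early cluster to 7355 ± 503 CPM in mature and 3124 ± 566 CPM in inflammatory cells, a 4.70-fold range. For Cd177 the range was 7.33-fold, from 2486 ± 279 CPM in the unnamed early cluster to 339 ± 112 CPM in inflammatory cells, and mature cells still had 1491 ± 224 CPM. Olfm4 peaked in immature cells, at 655 ± 60.5 CPM, and had 218 ± 39.0 CPM in proliferating and 84.1 ± 49.6 CPM in inflammatory cells. S100a8 ranged only 1.68-fold, from 146399 ± 8906 CPM in immature to 87149 ± 8524 CPM in inflammatory cells. S100a9 ranged 1.34-fold and was the only member highest in mature cells, at 158004 ± 21081 CPM, with 118636 ± 10835 CPM in proliferating cells. Not all neighbours in these orders were separated. The ranges over the 4 mice overlapped between the unnamed early and immature stages for Ltf, Lcn2 and Cd177, between proliferating and unnamed early for Camp and Chil3, and between each pair of neighbouring stages for S100a9. These levels describe clusters that were drawn from the same cells, so no test was made between stages.

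**Figure D1:**
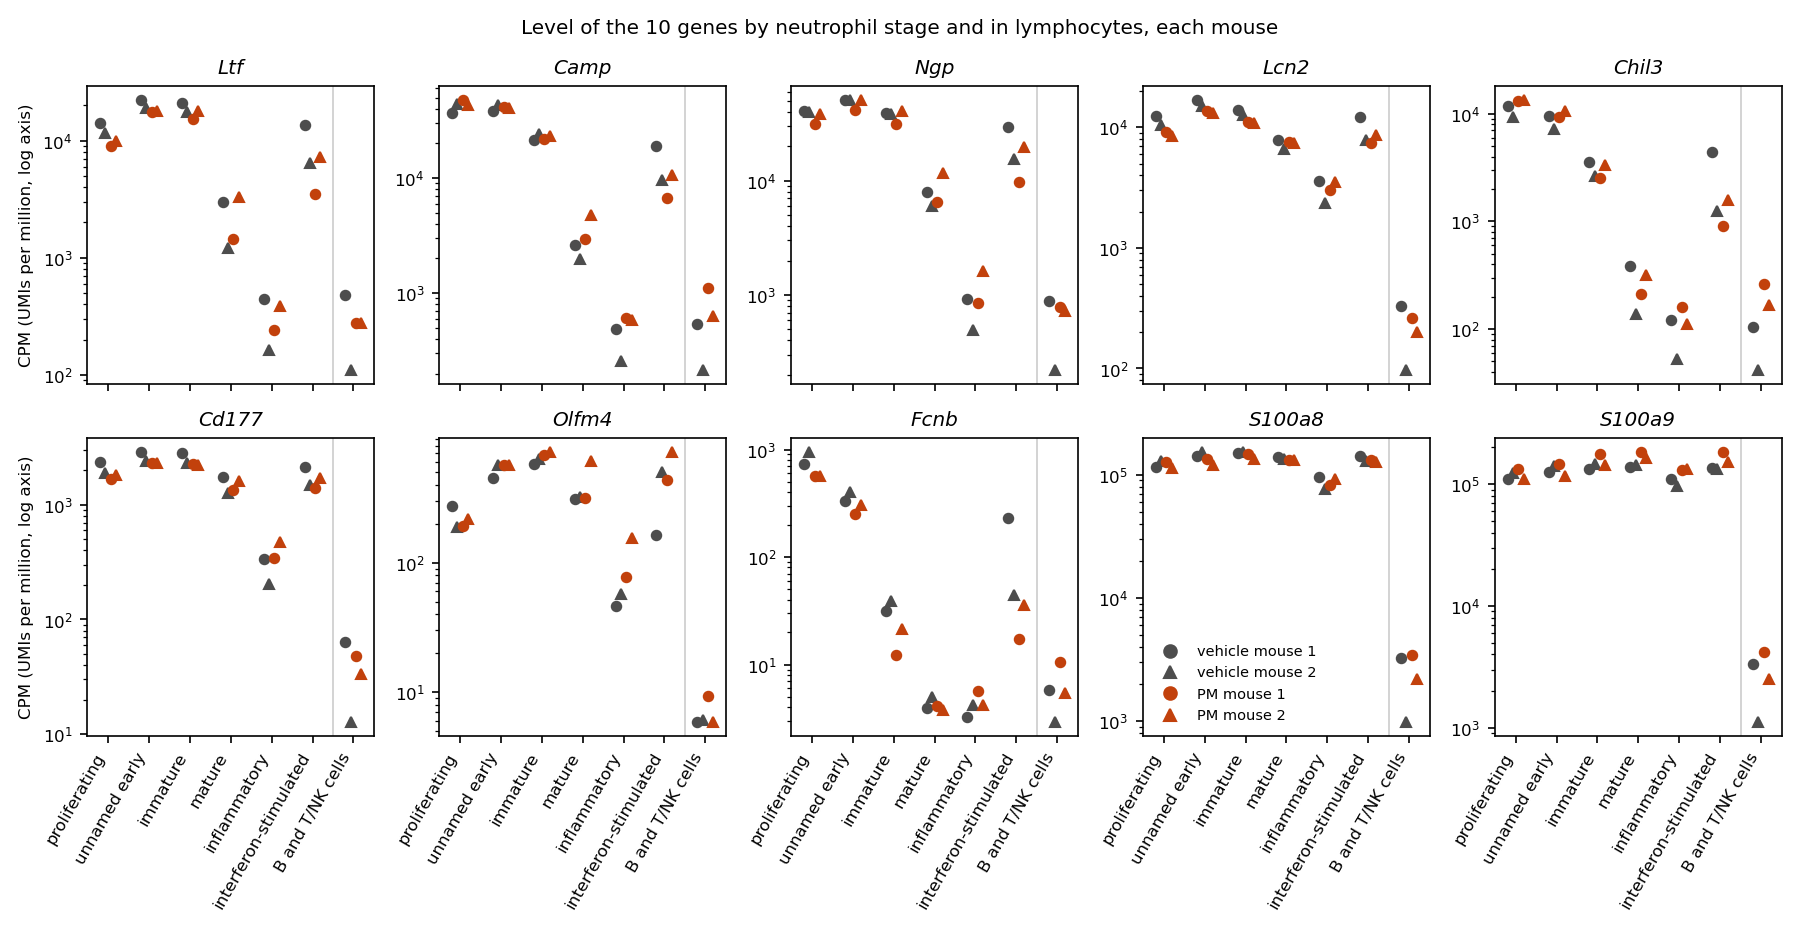
Level of each of the 10 genes (CPM, log axis) in the 6 neutrophil stages and in B and T/NK cells without called doublets, with 1 symbol per mouse (grey for vehicle, orange for PM). Chil3, Camp, Ltf and Fcnb reach the level of the lymphocytes in inflammatory cells, while Lcn2 and Cd177 stay above it and S100a8 and S100a9 stay far above it.

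The low end of the series met the background of the droplets. B and T/NK cells were taken as cells that do not make these proteins, which was not tested. They gave a level for each gene and mouse, pooled over their cells. For the 10 genes together this pooled level lies above that of a typical lymphocyte, as given below. In inflammatory neutrophils 4 of the 10 genes were at or below the pooled level in some of the mice. The ratio of inflammatory neutrophils to lymphocytes of the same mouse was 0.880 to 1.48 for Ltf, 0.551 to 1.19 for Camp, 0.613 to 1.28 for Chil3 and 0.539 to 1.45 for Fcnb. For Ngp it was 1.04 and 2.24 in vehicle mice, against 1.08 and 2.24 in PM mice, so that mouse 1 of each group was close to the lymphocyte level. Lcn2 was 10.9 to 24.5 times, Cd177 5.23 to 16 times, Olfm4 7.88 to 26.3 times, S100a8 24.3 to 79.3 times and S100a9 31.6 to 87.3 times the lymphocyte level. Fcnb in mature cells was at or below the lymphocyte level in 3 of 4 mice. A pooled level of Ltf, Camp, Chil3 or Fcnb in inflammatory neutrophils is therefore not read as expression, nor is one of Ngp in vehicle mouse 1 or PM mouse 1. The share of cells with a UMI was also read at 2000 UMIs per cell. For Ngp it was 9.36 to 30.3 points above that of the lymphocytes over the 4 mice. For Ltf, Camp, Chil3 and Fcnb it differed by −3.14 to 11.4 points, and each was below the lymphocytes in 1 mouse. At that depth 489 of 2048 vehicle and 986 of 2238 PM inflammatory cells were left out.

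The comparison of PM with vehicle asked what 24 h of the inhibitor did to this program. Over all neutrophils, 0 of the 10 genes were called by edgeR (Benjamini-Hochberg adjusted p under 0.05 and an absolute log2 fold change over 0.5), against 5.66% of the 12016 genes tested (4.79% higher and 0.874% lower). Of the 10, 1 had an unadjusted p under 0.05, against 1750 genes higher and 1063 lower of the 12016. DESeq2 called 1 of the 10, against 5.38% of all genes. The log2 fold changes ran from −0.63 to 0.19 with a median of −0.16, against a median of 0.00 over all genes. The PM and vehicle mice did not overlap in 6 of the 10 genes, 2 with PM above and 4 with PM below, against 52% of all genes tested (37.2% above and 14.7% below). By stage the groups did not overlap in 6 of the 10 genes in proliferating cells (40.8% of all genes), 5 in the unnamed early cluster (46.8%), 5 in immature cells (50.6%), 3 in mature cells (50.5%), 5 in inflammatory cells (56%) and 2 in interferon-stimulated cells (44.6%).

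Fcnb had the largest of these shifts. Over all neutrophils it had 260 and 337 CPM in vehicle mice (11326 and 9496 UMIs), against 215 and 190 CPM in PM mice (8234 and 5766 UMIs). Both PM mice were below both vehicle mice, with a log2 fold change of −0.63 (SE 0.16, adjusted p = 0.053, edgeR, Benjamini-Hochberg), just outside the threshold. In immature cells Fcnb fell, with 31.4 and 38.8 CPM in vehicle mice (374 and 318 UMIs), against 12.3 and 21.6 CPM in PM mice (140 and 223 UMIs). The log2 fold change there was −1.15 (SE 0.20, adjusted p = 0.0078, edgeR, Benjamini-Hochberg), where 7.72% of all genes were called and 2.18% were lower, and it was the 1 member of 10 called in that stage. The call was kept under each alternative computed for this stage, with log2 fold changes between −1.5 and −0.79. The level pooled over lymphocytes was 5.84, 2.90, 10.6 and 5.46 CPM in vehicle mouse 1, vehicle mouse 2, PM mouse 1 and PM mouse 2, so that PM mouse 1 was only 1.16 times above it.

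In the earlier stages, where Fcnb is abundant, the values had the same direction. The unnamed early cluster had 335 and 401 CPM in vehicle mice, against 253 and 302 CPM in PM mice, a fall of 0.57 on the log2 scale (SE 0.14, adjusted p = 0.041, edgeR, Benjamini-Hochberg), again the 1 member called where 3.66% of all genes were, 0.688% lower. This call was lost with the stricter cell filter (adjusted p = 0.051), at a resolution of 0.5 (0.056) and without vehicle mouse 1 (0.076), vehicle mouse 2 (0.26) or PM mouse 1 (0.052), all with edgeR and Benjamini-Hochberg adjustment. Proliferating cells had 732 and 955 CPM, against 570 and 573 CPM, with a log2 fold change of −0.64 (SE 0.16, adjusted p = 0.062, edgeR, Benjamini-Hochberg). In that stage 0 of the 10 genes were called, against 2.84% of all genes, and DESeq2 called 2, against 1.575% of all genes. An unadjusted p under 0.05 was reached by 4 of the 10, against 1024 genes higher and 592 lower of 10222 tested. Progenitors of granulocytes and monocytes had 377 and 495 CPM of Fcnb, against 312 and 350 CPM (log2 fold change −0.42, SE 0.15, adjusted p = 0.32, edgeR, Benjamini-Hochberg).

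The share of cells with Fcnb was read at an equal depth of 2000 UMIs per cell. In proliferating cells it was 59.8% and 68.5% in vehicle mice, against 56.5% and 57.7% in PM mice (17 of 1006 and 4 of 1170 cells were shallower and left out), against 0.648% to 1.18% of lymphocytes. Without thinning the group means were 92.5% and 90.8%, and the groups overlapped. In the unnamed early cluster the thinned share was 36.6% and 40.7% against 28.3% and 33.8%. In immature cells, where Fcnb was called, it was 3.41% and 5.34% against 2.02% and 3.86%, and in all neutrophils 12.3% and 15.025% against 12.9% and 11.8%, with the groups overlapping in both. At 1000 UMIs and without thinning they did not overlap in either. Immature cells had 2.58% and 3.16% against 0.993% and 1.33% at 1000 UMIs. All neutrophils had 7.56% and 9.85% against 6.94% and 6.10%. When each mouse was given the same mixture of stages, the log2 ratio of PM to vehicle was −0.61 ± 0.13 (SD over the 4 pairs of a vehicle and a PM mouse), and PM was lower in 4 of 4 pairs. The pairs share mice and are not independent, so 4 of 4 says only that the groups did not overlap. Other members were found in more cells of both PM mice in all neutrophils at 2000 UMIs. Ltf had 70.7% and 68.0% against 80.1% and 77.1%, and Camp 75.8% and 76.1% against 90.6% and 86.1%. Ngp, Lcn2, Chil3, Cd177 and Olfm4 were also higher, and at 1000 UMIs Lcn2 and Cd177 overlapped. In immature cells Camp and Olfm4 were higher in both, and Ngp and Cd177 lower. The mixtures of stages differed, and 878 of 10538 vehicle and 1616 of 12533 PM cells were left out. No share over all genes was computed for these values.

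None of the other genes was called in the early stages. Ltf in proliferating cells had 14189 and 11540 CPM in vehicle mice, against 8949 and 9863 CPM in PM mice. Both PM mice were lower, and the log2 fold change of −0.53 did not pass the test (SE 0.18, adjusted p = 0.17, edgeR, Benjamini-Hochberg). Lcn2 in the same cells had 12486 and 10449 CPM against 9071 and 8417 CPM, with a log2 fold change of −0.46 (SE 0.19, adjusted p = 0.25, edgeR, Benjamini-Hochberg). Its PM mice stood below its vehicle mice in the proliferating, unnamed early and immature stages alike. Camp, the cathelicidin gene, had 36440 and 44138 CPM against 48050 and 42717 CPM in proliferating cells, and its groups overlapped. Chil3 was higher there in both PM mice, with 11774 and 9403 CPM against 13134 and 13563 CPM (log2 fold change 0.26, SE 0.19, adjusted p = 0.54, edgeR, Benjamini-Hochberg). In the immature stage the groups of Ltf, Camp, Ngp, Chil3 and S100a9 overlapped.

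**Figure D2:**
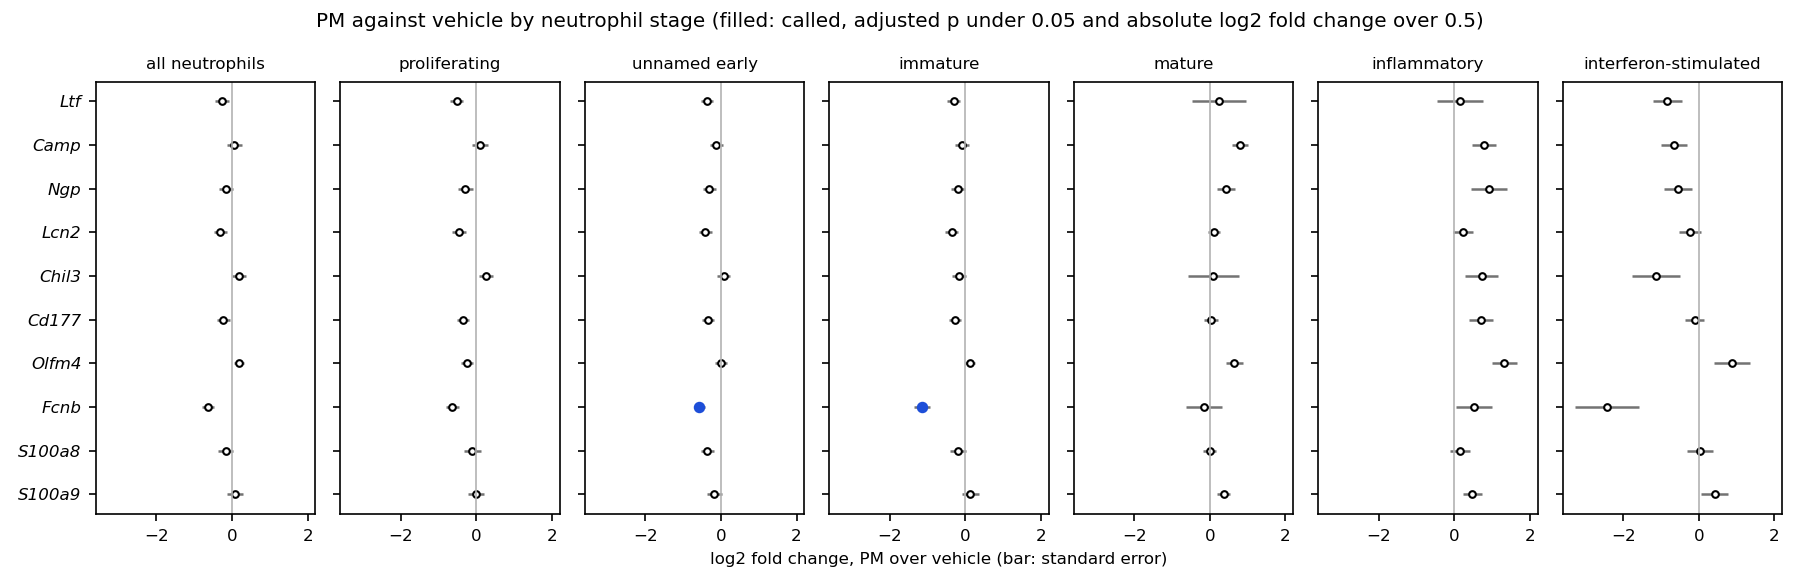
Log2 fold change of PM over vehicle for the 10 genes in all neutrophils and in each stage (edgeR, points with standard errors, 2 mice per group); filled points passed the threshold. Fcnb in the unnamed early and immature stages is filled, and no other point is.

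In mature and inflammatory cells the median log2 fold change of the 10 genes was above 0 (0.18 and 0.61), and in interferon-stimulated cells it was −0.39. Camp in mature cells had 2607 and 1993 CPM in vehicle mice, against 2927 and 4742 CPM in PM mice, with a log2 fold change of 0.79 (SE 0.21, adjusted p = 0.066, edgeR, Benjamini-Hochberg). In the mature stage 0 of the 10 genes were called against 3.75% of all genes, and DESeq2 called 1, against 1.58% of all genes. An unadjusted p under 0.05 was reached by 3 of the 10, against 740 genes higher and 631 lower of 7659 tested. PM mouse 1 entered this stage with 145 cells. At 2000 UMIs per cell Camp was found in 56.6% and 59.2% of the mature cells of vehicle mice, against 79.2% and 81.1% in PM mice. Its share of lymphocytes was 29.6% and 32.1% against 49.9% and 33.0%. Without vehicle mouse 1 or PM mouse 1 Camp was called (1.00 and 1.04, adjusted p = 0.00081 and 0.0013), and without vehicle mouse 2 or PM mouse 2 it was not (0.58 and 0.43, adjusted p = 0.095 and 0.24, all with edgeR and Benjamini-Hochberg adjustment). It was also called without the filter on low counts (0.69, adjusted p = 0.0035), without called doublets (1.00, adjusted p = 0.026, both edgeR, Benjamini-Hochberg) and by DESeq2 (0.80, adjusted p = 0.020). At a resolution of 0.5 it was called as well (0.98, adjusted p = 0.0078, edgeR, Benjamini-Hochberg), but the classes were then others. PM mouse 1 had 1762 mature and 24 interferon-stimulated cells there, against 145 and 1666 in the main clustering, and the interferon-stimulated class of the main clustering had 11413 ± 5274 CPM of Camp against 3067 ± 1182 CPM in its mature class (SD, n = 4 mice). In inflammatory cells the 10 log2 fold changes were all above 0, from 0.14 to 1.33 with a median of 0.61, and 0 were called against 4.39% of all genes (DESeq2 called 1, against 2.94% of all genes). An unadjusted p under 0.05 was reached there by 2 of the 10, against 988 genes higher and 839 lower of 7726 tested. The level of Ltf, Camp, Chil3 and Fcnb there was that of the lymphocytes, as given above, and the 10 genes took 0.901% and 0.278% of the UMIs of those lymphocytes in vehicle mice, against 1.03% and 0.675% in PM mice.

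Olfm4 in inflammatory cells had 46.0 and 57.2 CPM in vehicle mice, against 77.1 and 156 CPM in PM mice, which is 7.88 to 26.3 times the lymphocyte level (log2 fold change 1.33, SE 0.33, adjusted p = 0.072, edgeR, Benjamini-Hochberg). The values of Olfm4, Camp and Ngp in inflammatory cells turned to −0.82, −0.31 and −0.18 when the genes called between PM and vehicle were kept in the clustering. The interferon-stimulated stage had 75 and 90 cells in vehicle mice, against 1666 and 358 in PM mice. There 0 of 10 genes were called by edgeR, against 0.191% of all genes, and 0 by DESeq2, against 0.278% of all genes. An unadjusted p under 0.05 was reached by 1 of the 10, against 435 genes higher and 423 lower of 5749 tested.

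The difference of the PM effect between stages was tested for immature against proliferating and for mature against immature cells, as an interaction with the mouse as a block. Of the 10 genes 0 were called in the former, where 2.7% of all genes were, and 1 in the latter, where 1.6% were, 0.647% higher. An unadjusted p under 0.05 was reached by 4 of the 10 in the former, against 857 genes higher and 1038 lower of 10897. In the latter 3 of the 10 reached it, against 507 genes higher and 608 lower of 10054. Ngp had a log2 fold change of −0.19 in immature and 0.42 in mature cells, and the effect in mature cells was higher by 0.53 (SE 0.11, adjusted p = 0.00049, edgeR, Benjamini-Hochberg). Its CPM was 39261 and 37983 against 31061 and 41036 in immature cells and 8011 and 6037 against 6500 and 11658 in mature cells, so that the groups overlapped in both. The call of Ngp was lost with the 10 genes left out of the normalization (0.47, adjusted p = 0.22) and without vehicle mouse 1 (0.70, 0.17), vehicle mouse 2 (0.33, 0.81) or PM mouse 2 (0.23, 0.54), all with edgeR and Benjamini-Hochberg adjustment. Lcn2 differed the same way by 0.43 (SE 0.11, adjusted p = 0.0067, edgeR, Benjamini-Hochberg), with 7778 and 6629 against 7567 and 7444 CPM in mature cells, and passed the threshold for p without PM mouse 1 (0.015) but not without vehicle mouse 1 (0.67), vehicle mouse 2 (0.64) or PM mouse 2 (0.094). For Chil3 the effect in immature cells was lower than in proliferating cells, a difference of −0.45 (SE 0.097, adjusted p = 0.0097, edgeR, Benjamini-Hochberg; without PM mouse 1 it was −0.26 with an adjusted p of 0.41). The differences of Lcn2 and Chil3 stayed under the fold threshold of 0.5.

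Given the same mixture of stages in each mouse, the remaining genes moved little. The log2 ratio of PM to vehicle over the 4 pairs, which share mice as above, was 0.32 ± 0.23 (SD) for Olfm4 and 0.21 ± 0.13 for S100a9, with PM higher in 4 of 4 pairs. It was −0.21 ± 0.14 for Lcn2 and −0.09 ± 0.04 for S100a8, with PM higher in 0 of 4 pairs. Ltf (−0.26 ± 0.25), Camp (0.03 ± 0.06), Ngp (−0.14 ± 0.25), Chil3 (0.13 ± 0.31) and Cd177 (−0.13 ± 0.21) had pairs on both sides. With equal weight for each stage Olfm4 was higher in 3 of 4 pairs. An exact permutation test of 2 against 2 mice cannot go below p = 0.33, so no test was made of these values.

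S100a9 and S100a8 separated from each other in the PM mice. Their ratio needs no normalization, and it was taken up after the values had been seen. Over all neutrophils S100a8 had 133481 and 137333 CPM in vehicle mice, against 132508 and 122069 CPM in PM mice, while S100a9 had 125410 and 133798 CPM against 156372 and 133265 CPM. There were 0.940 and 0.974 UMIs of S100a9 per UMI of S100a8 in vehicle mice, against 1.18 and 1.09 in PM mice. The ratio was higher in both PM mice than in both vehicle mice in each neutrophil stage. It differed between the stages in each group, being lower in proliferating cells (0.947 ± 0.00379 for vehicle and 1.01 ± 0.0613 for PM, SD, n = 2 mice) than in inflammatory cells (1.202 ± 0.0653 and 1.51 ± 0.0968). Over 19 classes, that is all neutrophils, their stages and the other cell types, the ratio was above the vehicle mice in both PM mice in 17. The exceptions were the progenitors of granulocytes and monocytes and the CAR (Cxcl12-abundant reticular) stromal cells. Some gaps were small, as in proliferating cells, with 0.950 and 0.945 against 1.05 and 0.963. Ratios of other gene pairs were not computed. These 19 values are not independent, since all neutrophils contain the stages, stages of a mouse share a library and the UMIs in other cell types can come from its neutrophils. In T/NK cells the ratio was 0.964 and 0.963 against 1.18 and 1.149. Neither gene alone was called in any stage. S100a9 had log2 fold changes of 0.37 in mature and 0.47 in inflammatory cells (SE 0.17 and 0.26, adjusted p = 0.27 and 0.30, edgeR, Benjamini-Hochberg).

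**Figure D3:**
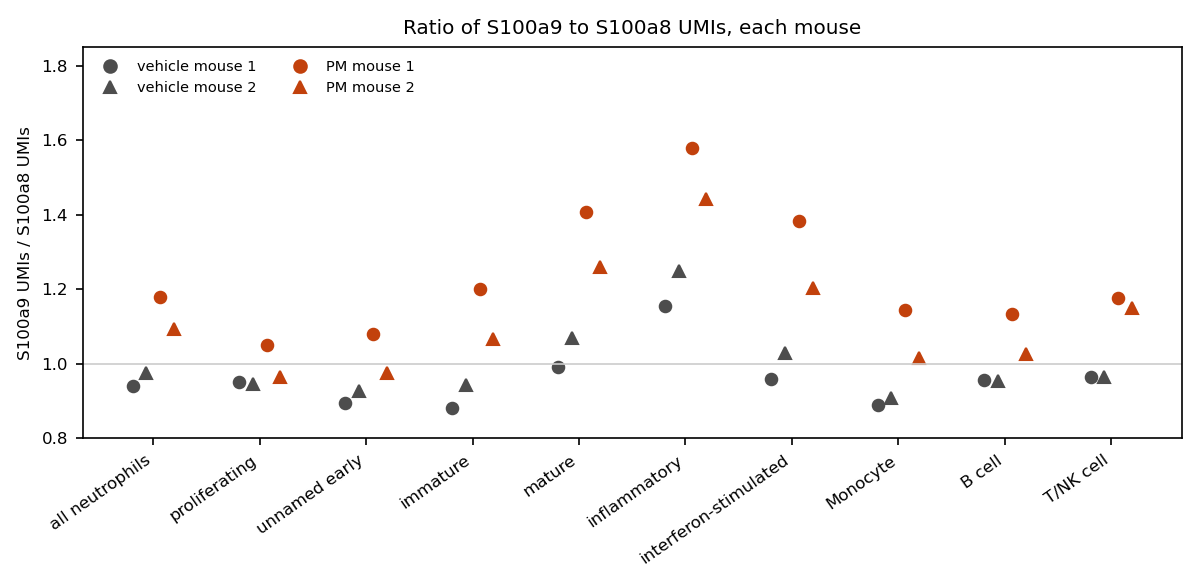
Number of S100a9 UMIs per S100a8 UMI in neutrophils, their stages, monocytes, B cells and T/NK cells, with 1 symbol per mouse. Both PM mice lie above both vehicle mice in each class plotted, and the ratio is highest in inflammatory cells, at 1.16 and 1.248 against 1.58 and 1.44.

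Olfm4 was the gene of the 10 that marked a minority of cells rather than a stage. In immature cells thinned to 2000 UMIs, without called doublets, an Olfm4 UMI was found in 6.72% and 10.4% of the cells of vehicle mice, against 13.3% and 11.1% in PM mice. Had the same UMIs been spread over all the cells at random, 62.0% to 78.0% would have had at least 1. Cells with at least 3 Olfm4 UMIs were 6.15% to 11.6% of the immature cells and held 98.5% to 99.5% of its UMIs. Cd177, a surface protein of a subset of neutrophils in humans, was spread over the cells instead, with a UMI in 97.2% to 99.2% of them against 98.7% to 99.6% for a random spread. For most of the other genes the Olfm4 cells had levels near those of the remaining cells. Per cell, those with at least 3 Olfm4 UMIs and those with 0 had 38.6 and 40.3 UMIs of Ltf, 40.4 and 40.7 of Camp and 28.2 and 27.3 of Lcn2 in vehicle mouse 1. For Ltf, Camp, Ngp, Lcn2, Chil3, Cd177, S100a8 and S100a9 the log2 ratio between these cells lay between −0.14 and 0.16 in the 4 mice. For Fcnb, with under 0.1 UMIs per cell, it was 0.24 and 0.58 in vehicle mice, against −0.38 and −0.53 in PM mice.

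The share of Olfm4 cells was similar from the proliferating to the mature stage, and the number of UMIs in them was not. The share was 8.58% to 10.7% in proliferating, 7.22% to 12.6% in unnamed early and 6.35% to 12.2% in mature cells, while the mean number of UMIs in a cell that had any was 3.94 to 5.98 in proliferating and 9.85 to 14.4 in immature cells. In immature cells both PM mice had a higher share than both vehicle mice, and the level over all cells was 581 and 636 CPM against 684 and 721 CPM (log2 fold change 0.13, SE 0.13, adjusted p = 0.59, edgeR, Benjamini-Hochberg).

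**Figure D4:**
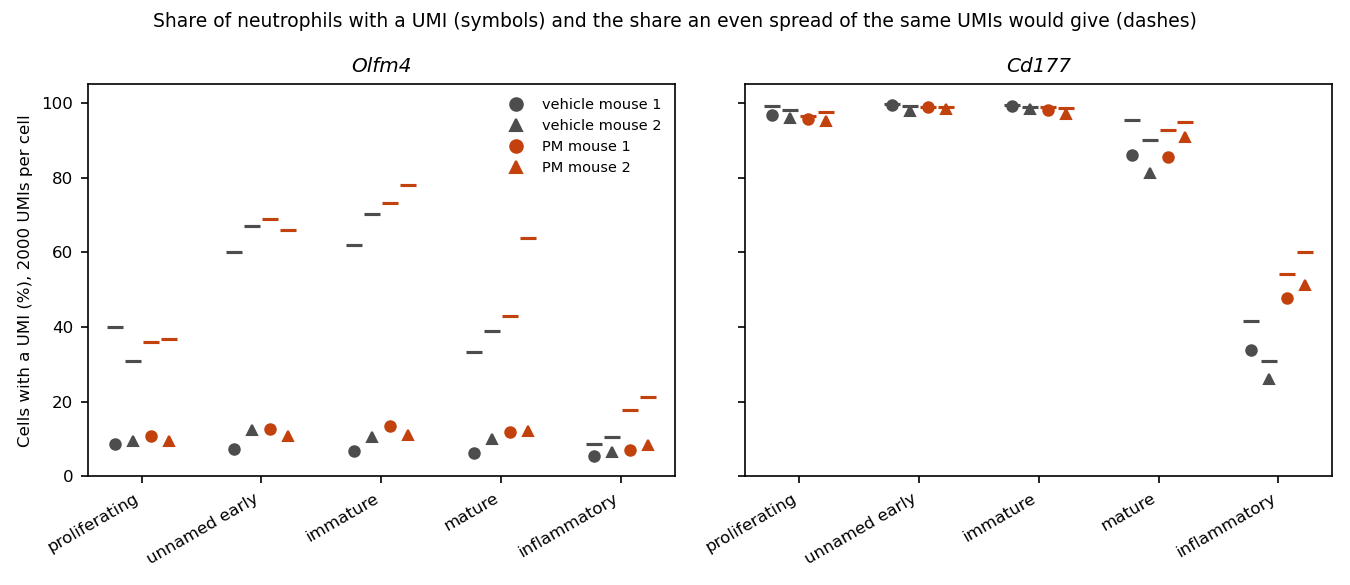
Share of neutrophils (%) with at least 1 UMI of Olfm4 and of Cd177 at 2000 UMIs per cell, for 5 stages and each mouse, with dashes for the share that a random spread of the same UMIs would give. The Olfm4 symbols lie far below their dashes in each stage before the inflammatory one, and the Cd177 symbols lie close to theirs up to the immature stage. Cd177 lies below its dashes in mature cells (81.4% to 91.0% against 90.1% to 95.6%) and in inflammatory cells (26.0% to 51.4% against 31.0% to 60.2%).

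Outside the cells named neutrophils the 10 genes were followed in 12 other cell types, and 3 calls were made by edgeR, in B cells, progenitors of granulocytes and monocytes and CAR stromal cells. In the others 0 of the 10 were called, against 0.212% of all genes in T/NK cells, 1.37% in monocytes, 0.534% in an unnamed S-phase cluster, 0.16% in basophils and eosinophils, 0.0761% in erythroid cells, 0.222% in macrophages, 0% in megakaryocytes, 0.0631% in plasma cells and 0.439% in plasmacytoid dendritic cells. Over the 12 types DESeq2 made 5 calls, edgeR without called doublets made 8, and leaving out 1 mouse gave 12 to 22. Of all genes tested over the 12 types, 0.809% were called in the main comparison, 0.559% by DESeq2, 0.662% without called doublets and 0.592% to 1.848% with 1 mouse left out. The cells named neutrophils held 78.4% to 88.4% of the UMIs of the 10 genes in a library. The unnamed S-phase cluster of 816 cells was not counted among them, although its best list was that of neutrophils. It had 18 of 18 neutrophil markers detected, as T/NK cells also had UMIs of these markers. Only 5 of the 18 were raised over the other clusters, and the score of the list was −0.384. Fcnb, Chil3, Orm1 and Camp were among the 10 most raised genes of the cluster. Fcnb had a log2 fold change of −0.64 in this cluster (SE 0.19, adjusted p = 0.20, edgeR, Benjamini-Hochberg). Chil3 rose in B cells, from 390 and 441 CPM in vehicle mice (285 and 1509 UMIs) to 1147 and 770 CPM in PM mice (5079 and 2104 UMIs), with a log2 fold change of 1.21 (SE 0.19, adjusted p = 0.0028, edgeR, Benjamini-Hochberg, 4.98% of all genes called, 2.26% higher). These UMIs were unevenly spread, and the 5 cells with the most held 85.6% and 65.7% of them in vehicle mice, against 26.4% and 62.0% in PM mice. Without called doublets Chil3 had 72.6 and 42.0 against 224 and 163 CPM in B cells, and it was then joined by Camp, Ngp and Ltf, with log2 fold changes of 1.91, 1.87, 1.44 and 1.17 (adjusted p = 0.0068, 0.0018, 0.0019 and 0.0025, edgeR, Benjamini-Hochberg). Of all 10386 genes tested in that fit 2.97% were called, 1.175% higher. The 10 genes together took 0.581% and 0.210% of the UMIs of these B cells in vehicle mice, against 0.938% and 0.598% in PM mice, and the part of this background in the calls was not tested.

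Chil3 also rose in the progenitors of granulocytes and monocytes, from 1000 and 643 CPM to 1768 and 2059 CPM, with a log2 fold change of 1.2 (SE 0.19, adjusted p = 0.043, edgeR, Benjamini-Hochberg), where 0.282% of all genes were called, 0.25% higher. Here the UMIs lay in 60.1% to 83.9% of the cells. The value without called doublets was 1.148 with an adjusted p of 0.055 (edgeR, Benjamini-Hochberg), and the call was also lost without PM mouse 1 (0.21) or PM mouse 2 (0.070). In monocytes, which make Chil3 themselves, the levels were 3808 and 1705 CPM against 2268 and 1719 CPM. Olfm4 rose in the 212 CAR cells, from 1 and 3 UMIs in vehicle mice to 135 and 81 UMIs in PM mice (log2 fold change 4.89, SE 0.63, adjusted p = 0.04995, edgeR, Benjamini-Hochberg, 0.0671% of all genes called, 0.0336% higher). Those UMIs came from 5 cells in each PM mouse, with up to 76 in a single cell, and the 10 genes took 14.4% to 26.6% of all UMIs of the CAR cells of a mouse.

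As free RNA in lymphocytes, the 10 genes were present in nearly every cell. In B and T/NK cells without called doublets, 98.6% to 99.95% of the cells had at least 1 of their UMIs, at a median per cell of 6 and 5 in vehicle mice, against 10 and 7 in PM mice. Their share of all UMIs was 0.901% and 0.278% in vehicle mice, against 1.03% and 0.675% in PM mice, that is 0.589% ± 0.440 and 0.854% ± 0.254 (SD, n = 2 mice), and the groups overlapped. The share in a typical cell, the median over cells, was 0.230% and 0.181% against 0.408% and 0.224%. With the called doublets kept the group means were 3.59% and 3.64%, so that the called doublets, a minority of the barcodes, carried most of these UMIs.

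The make-up of these pooled lymphocyte UMIs was close to that of the neutrophils of the same mouse. The UMIs lay unevenly over the cells. Their mean per cell was 27.5 and 9.03 in vehicle mice, against 30.1 and 24.4 in PM mice, above the medians of 6 and 5 against 10 and 7. The part of uncalled doublets in the pooled UMIs was not tested. S100a8 and S100a9 were 69.6% to 74.8% of the UMIs of the 10 genes in lymphocytes and 74.3% to 76.8% in neutrophils. Each gene stood in lymphocytes at 0.667% to 4.92% of its level in neutrophils, with medians over the 10 genes of 2.55% and 0.844% in vehicle mice, against 2.65% and 2.15% in PM mice. Olfm4, at 1.18% to 2.08%, was the lowest in 3 of the 4 mice and the highest in vehicle mouse 2. Fcnb was the highest in both PM mice, at 4.92% and 2.87%, from 65 and 24 UMIs.

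**Figure D5:**
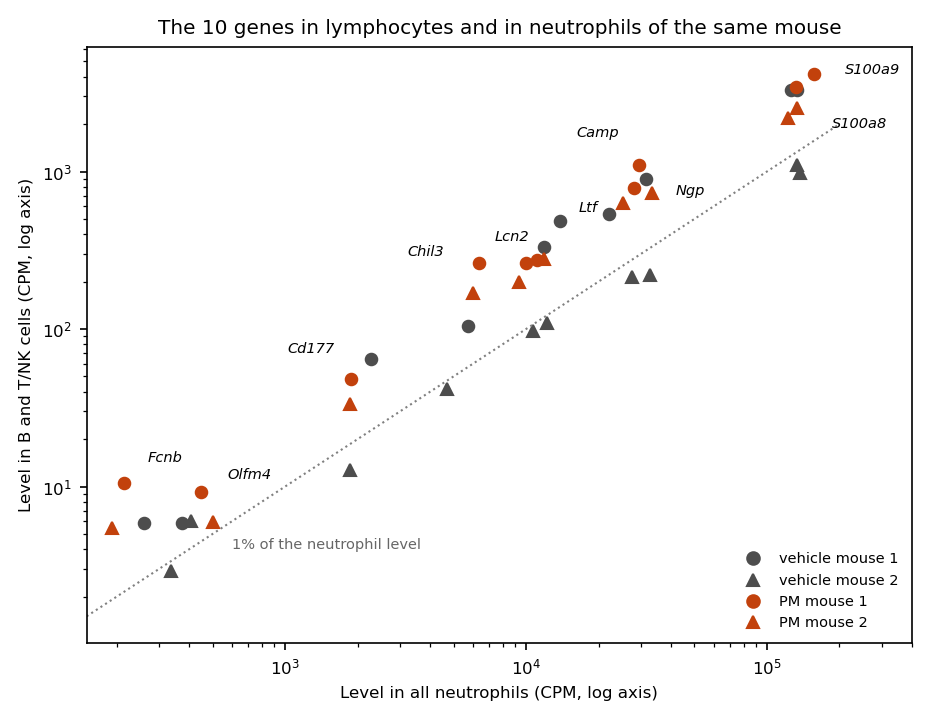
Level of each of the 10 genes in B and T/NK cells without called doublets against its level in all neutrophils of the same mouse (CPM, both axes log), with the line of 1% of the neutrophil level dotted. Points of a mouse run parallel to the line, with vehicle mouse 2 near 1% and the other mice between 1% and 5%.

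Other genes of the program were followed in 5 lists of 58 genes. In all neutrophils 51 of them were tested, 3 were higher (Cebpa, Gfi1, Pecam1) and 2 lower (Orm1, Tlr4) in PM mice, and the median log2 fold change was −0.03. Of 20 tested genes of the specific and gelatinase granules 1 was called, Orm1, an acute-phase carrier protein. It had 115 and 93.9 CPM against 47.3 and 41.2 CPM (log2 fold change −1.32, SE 0.15, adjusted p = 0.0024, edgeR, Benjamini-Hochberg). It fell with Fcnb in the unnamed early cluster (280 and 212 against 90.6 and 109 CPM, log2 fold change −1.46). Of the 6 primary granule genes 0 were called in all neutrophils and 3 in the unnamed early cluster, all higher. Elane, neutrophil elastase, had 12 and 7.92 against 51.7 and 36.5 CPM there (log2 fold change 2.02, SE 0.25, adjusted p = 0.0017, edgeR, Benjamini-Hochberg), and Prtn3, proteinase 3, had 54.8 and 31.5 against 107 and 103 CPM, a call lost without PM mouse 1 or PM mouse 2 (adjusted p = 0.31 and 0.091, edgeR, Benjamini-Hochberg). The summed level of the 5 progenitor markers, which include both genes, in that cluster was 110 to 150 CPM in vehicle mice, against 272 to 312 CPM in PM mice, and its part in the result was not tested.

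Among the transcription factors of granulopoiesis, Cebpe, which encodes C/EBP-epsilon, had 357 and 379 against 454 and 465 CPM in all neutrophils and was not called (log2 fold change 0.24, SE 0.13, adjusted p = 0.31, edgeR, Benjamini-Hochberg). It was called in mature cells (45.6 and 56.1 against 69.9 and 134 CPM, log2 fold change 1.2) and in inflammatory cells (7.84 and 22.9 against 49.5 and 46.9 CPM, log2 fold change 1.81). Pooled lymphocytes, with called doublets kept, also had UMIs of Cebpe. B cells had 26.0 and 32.4 against 66.0 and 42.1 CPM, and T/NK cells 52.7 and 47.4 against 77.4 and 20.6 CPM. The level in inflammatory cells was below both in each mouse but PM mouse 2. The part of free RNA in these 2 calls was not tested. The call in mature cells was lost without PM mouse 2 (0.55, adjusted p = 0.31), and that in inflammatory cells without PM mouse 1 (1.81, adjusted p = 0.12) or PM mouse 2 (1.82, adjusted p = 0.17), both with edgeR and Benjamini-Hochberg adjustment. Gfi1, a repressor needed for granulopoiesis, rose from 23.5 and 26.1 to 43.0 and 48.5 CPM (log2 fold change 0.80, SE 0.11, adjusted p = 0.0036, edgeR, Benjamini-Hochberg). Of the other S100 genes, S100a6 rose in proliferating cells from 512 and 424 to 2319 and 1690 CPM (log2 fold change 2.04, SE 0.20, adjusted p = 0.00041, edgeR, Benjamini-Hochberg), and of 6 genes tested there S100a4, S100a6 and S100a10 were called, all higher. In the same cells most marker lists of other cell types were higher in both PM mice. The summed level of 7 macrophage markers was 41.4 and 52.4 against 95.5 and 105.1 CPM, with 0 of them at 0. That of 8 monocyte markers was 1082 and 966 against 1209 and 1179 CPM. That of 4 endothelial markers was 1.79 and 2.79 against 9.84 and 8.29 CPM, with Emcn at 0. The part of such cells in the result was not tested.

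Receptors and partners moved in either direction. Tlr4, a receptor for S100a8 and S100a9, fell from 32.2 and 28.9 to 21.8 and 23.9 CPM in all neutrophils (log2 fold change −0.51, SE 0.11, adjusted p = 0.031, edgeR, Benjamini-Hochberg). This call was lost without vehicle mouse 1 (−0.41, adjusted p = 0.22) or PM mouse 1 (−0.49, adjusted p = 0.087), both with edgeR and Benjamini-Hochberg adjustment. Fpr2, a receptor of the cathelicidin peptide, fell in proliferating (log2 fold change −1.14), unnamed early (−1.02) and immature cells (−0.70), where it had 1466 and 1251 against 801 and 977 CPM. Without PM mouse 1 its call in proliferating cells was lost (−1.07, adjusted p = 0.11, edgeR, Benjamini-Hochberg). Pecam1, the partner of CD177, rose in mature cells from 8.13 and 7.30 to 43.2 and 33.2 CPM (log2 fold change 2.23, SE 0.26, adjusted p = 0.00057, edgeR, Benjamini-Hochberg) and in inflammatory cells by 1.99. Lrg1 fell in immature cells (957 and 713 against 525 and 571 CPM, log2 fold change −0.69, and −0.46 and not called without vehicle mouse 1), while Slc11a1, a metal transporter of the granule membrane, rose there (31.6 and 47.2 against 79.1 and 71.1 CPM). Lyz2, lysozyme, rose in mature cells from 2716 and 3474 to 6189 and 5298 CPM. Of the 58 listed genes, calls were made for 7 of 48 tested genes in proliferating, 12 of 48 in unnamed early, 8 of 49 in immature, 6 of 47 in mature and 5 of 48 in inflammatory cells and 0 of 45 in interferon-stimulated cells, beside the shares of all genes given above.

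The genes whose level over the 6 stages and 4 mice was most like the sum of the 10 were Rhou, Abca13, Myo5a, Golim4 and Cybb, with Pearson's r of log2 CPM of 0.966, 0.966, 0.965, 0.965 and 0.963 over 24 points, of 4534 genes compared. Stages of a mouse share its library, so the points are not independent. Abca13 and Cybb are also among the markers by which cells or stages were named. Cybb encodes a subunit of the NADPH oxidase, and its level ranged from 117 to 4753 CPM over the points. Of the 10 genes themselves Lcn2 (r = 0.964) and Cd177 (r = 0.963) were closest to their sum, and S100a9 (r = 0.421) and Fcnb (r = 0.62) were farthest from it.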

How the data were processed

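Bone marrow cells of 2 vehicle and 2 PM mice were captured with a 10x 3′ kit, and the count matrices, as deposited by the authors, hold raw UMI counts per gene and cell from Cell Ranger 6.0.1 (per the file headers). The study's methods name GRCm38 and the submitters' processing notes GRCm39, and the headers give no build, so coordinates here are those of the GRCm38 annotation and not of the files. The label "con" was read as vehicle.

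Barcodes were kept from 300 detected genes upwards and up to a mitochondrial share of 20%, and clustered (scanpy 1.11.5, Leiden, 2500 variable genes, 30 components, resolution 1), and neutrophils again (2000 genes, 20 components, resolution 0.8). The 10 genes were left out of both, and the 680 genes called in all neutrophils out of the latter, a choice made after the first stage clusters were seen to split by treatment. A cluster of all cells was named from the mean log2 ratio of its marker list to the other clusters, with a minimum of raised markers. A neutrophil stage was named from the mean standardized level of its list. An automatic doublet threshold called almost no cells in 2 libraries, so the highest scores were called, at 0.8% per 1000 barcodes. They were kept in the main values except those of free RNA and Olfm4 cells. A further 201 neutrophils, led by hemoglobin genes, belong to no stage.

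UMIs were summed per mouse and class and tested with edgeR 4.0.16 (quasi-likelihood, TMM, filterByExpr, R 4.3.3), with Benjamini-Hochberg adjustment over all genes tested and an absolute log2 fold change over 0.5. All 10 genes passed the filter in each class tested. DESeq2 1.42.0, other scalings, filters, resolutions, doublet removal and leaving out each mouse were alternatives. The fits were also run on counts simulated from the means, depths and dispersions estimated in these same mice. Such counts meet the assumptions of the fits, so this run cannot show how well they hold for real mice. With 2 mice per group the p-values rest on the spread between these animals and, to a large part, on variance estimates shared across genes. A p-value can therefore be smaller than the spread of a single gene over these mice would give. Depth was 69828595 to 109447030 UMIs per mouse. Sums of the standardized mixture used the pooled shares of the stages.

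The 10 genes and the lists were chosen with earlier results of these data known. Named list genes are the 3 largest called rises and falls per class among those averaging 20 CPM or more, and Cebpe; the likeness genes are the 5 with the highest correlation to the sum of the 10. Other genes were named where a count of them was small. The paper's legend for the monocyte scores speaks of independent experiments for the vehicle and PM samples, and the labels name none. Between the groups, the deviations of mice with the same replicate number had a correlation of −0.13 over 12016 genes. This cannot decide which mice shared an experiment, and the main fits of PM against vehicle used no replicate block.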

Additional observations from a re-analysis of the deposited data

Results flagged for a closer look

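In 3 cases the adjusted p of the difference in the PM effect between neutrophil stages was under 0.05 (edgeR, mouse as a block, Benjamini-Hochberg), and 1 of them, Ngp, also passed the fold threshold of 0.5. For Ngp the log2 fold change was higher by 0.53 in mature than in immature cells (adjusted p = 0.00049). The call was lost with the 10 genes left out of the normalization (adjusted p = 0.22) and without vehicle mouse 1, vehicle mouse 2 or PM mouse 2 (0.17, 0.81 and 0.54). For Lcn2 the same difference was 0.43 (adjusted p = 0.0067), with an adjusted p of 0.36 when the 10 genes were left out of the normalization and of 0.015 to 0.67 with a mouse left out. For Chil3 the difference of immature minus proliferating cells was −0.45 (adjusted p = 0.0097), and −0.26 without PM mouse 1 (adjusted p = 0.41). PM mouse 1 entered the mature stage with 145 cells, against 833 to 2122 in the other mice, and without it the Ngp and Lcn2 differences were 0.76 and 0.44.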

How the results depend on the processing

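Of 774 values recomputed for 96 results, 607 kept their direction and side of the threshold, 47 passed the threshold only under the alternative, 30 lost it, 80 counts or untested values moved and 10 turned sign. Over all neutrophils the count of the 10 genes called went from 0 to 1 (Fcnb) with RLE normalization, no filter on low counts, DESeq2 and doublets left out (0 to 1 with a mouse left out), and the count of all genes called to 1311 without the filter (231 to 892 with a mouse left out). In proliferating cells it was 1 without the filter, 2 with DESeq2 and 1 with the called genes kept in the clustering (0 to 1 with a mouse left out), and in the unnamed early cluster 0 with the stricter cell filter and at resolution 0.5 (0 to 1). In mature cells it was 2 without the filter, 1 with DESeq2, 2 without doublets, 2 at resolution 0.5, 3 at 1.2 and 3 with the called genes kept (0 to 3). In inflammatory cells it was 3 without the filter, 1 with DESeq2, 1 without doublets and 3 at resolutions 0.5 and 1.2 (0 to 4), and in interferon-stimulated cells 7 at resolution 1.2 (0 to 4). The share of all genes called moved as well. In all neutrophils it was 5.96% with RLE, 7.1% without the filter, 5.38% with DESeq2 and 5.38% without doublets, against 5.66% in the main comparison (1.89% to 7.06% with a mouse left out). In proliferating cells it was 3.42% without the filter, 1.575% with DESeq2 and 3.5% with the called genes kept, against 2.84% (0.224% to 5.23%), and in unnamed early cells 3.385% with the stricter filter and 4.4% at resolution 0.5, against 3.66% (1.66% to 5.9%). In mature cells it was 3.84% without the filter, 1.58% with DESeq2, 3.17% without doublets, 7.3% and 6.47% at resolutions 0.5 and 1.2 and 9.04% with the called genes kept, against 3.75% (2.95% to 6.64%). In inflammatory cells it was 6.53% without the filter, 2.94% with DESeq2, 4.92% without doublets, 5.2% and 8.565% at the resolutions and 0.227% with the called genes kept, against 4.39% (2.23% to 4.81%). In interferon-stimulated cells it was 26.9% at resolution 1.2, against 0.191% (0.355% to 5.17%). In other cell types it was 8 without doublets and 5 with DESeq2 (12 to 22), and for mature minus immature cells 2 with RLE, where 1.54% of all genes were called (0 to 3, and 0 to 3 for immature minus proliferating). Of the listed genes DESeq2 called 10 in all neutrophils (3 to 10 with a mouse left out) and 1 in interferon-stimulated cells (0 to 11), and with a mouse left out 2 to 11 were called in proliferating, 7 to 15 in unnamed early, 10 to 17 in immature, 5 to 9 in mature and 6 to 9 in inflammatory cells.

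With the called genes kept in the clustering, Olfm4, Camp and Ngp in inflammatory cells turned to −0.82, −0.31 and −0.18. With a mouse left out the log2 fold change ran from −0.10 to 0.21 for Camp and −0.091 to 0.23 for S100a9 in all neutrophils, −0.96 to 0.19 for Chil3 in monocytes, and −0.0094 to 0.11 and −0.56 to 0.39 for Cebpe in proliferating and interferon-stimulated cells. The free share was 3.59% and 3.64% with doublets kept and 0.316% for PM as a median over cells. The share of proliferating cells with Fcnb was 45.3% and 36.7% at 1000 UMIs and 92.5% and 90.8% without thinning. The share of inflammatory cells with Ngp was 28.1% and 45.6% at 1000 UMIs and 54.4% and 66.0% without thinning. The causes were not tested.

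Whether mice with the same replicate number shared an experiment is not given by the labels. With the replicate block, the 10 genes gave 0 calls in the unnamed early cluster, 2 in mature cells and 8 in other cell types, where 2.69%, 5.745% and 1.49% of all genes were called, and the lists 11 in mature cells. With the numbers crossed, which was added after seeing the data, they gave 1 call in all neutrophils, 0 in unnamed early, 1 in mature, 2 in inflammatory and 1 in interferon-stimulated cells, where 7.7%, 3.81%, 3.62%, 11.7% and 1.79% of all genes were called.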
